A study of Mus musculus with 10 samples.

Results

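The neutrophil granule genes examined here were Mpo, Prtn3, Elane and Ctsg, made early in neutrophil maturation, and Ltf, Camp, Ngp, S100a8 and S100a9, made late. They were picked by symbol, through the Entrez Gene identifier of each row of the count files, and these 9 genes stood among 26301 identifiers. Spinal cord RNA of C57BL/6 mice, an inbred laboratory strain, had been sequenced in 10 libraries, 3 male and 3 female at 8 weeks of age and 2 male and 2 female at 4 weeks. The labels name no treatment or altered genotype, so the groups share strain and tissue and differ by age and sex. Libraries held between 8453559 and 11594610 counts. Replicate numbers are given but no source of separate animals, so each p-value reflects the variation among these libraries alone, and that variation may be technical. Levels are in CPM, counts per 1000000 of a library's total, unless another scale is named.

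Neutrophils mature in bone marrow, and they fill their granules in a fixed order. Promyelocytes make the azurophil granules with myeloperoxidase and the serine proteases elastase, proteinase 3 and cathepsin G, and these genes are shut down as the cell matures. Myelocytes and metamyelocytes then make the specific granules with lactoferrin and the cathelicidin-type proteins, and the calcium-binding proteins S100a8 and S100a9 accumulate in the cytosol and stay abundant in the mature cell that leaves for the blood. Early genes therefore mark marrow precursors, while late genes are also read in older neutrophils. In a healthy spinal cord such cells are expected in vessels, meninges and attached tissue rather than among neurons and glia.

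The tissue label was checked on 12 genes of spinal cord cells, among them the myelin gene Mbp, the astrocyte gene Gfap and the motor neuron gene Chat. Their summed level lay between 42897 and 48771 CPM at 8 weeks and between 59778 and 66005 CPM at 4 weeks. Some libraries also held transcripts of tissues outside the cord. Summed over 6 lung genes, male 8-week libraries 2 and 3 stood at 856 and 98.7 CPM, against at most 7.03 CPM in the others. Summed over 8 adrenal genes, male 4-week libraries 1 and 2 stood at 138 and 100 CPM, against at most 17.1 CPM in the others. Male 4-week library 1 also had the highest sum over 12 skeletal muscle genes, 2113 CPM.

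All 9 granule genes were lower at 8 weeks than at 4 weeks, and the early genes by more than the late ones. The early genes fell by 1.54 to 1.81 on the log2 scale (median −1.77), and the late genes fell by 0.88 to 1.17 (median −1.01). Every early gene had a larger estimated decrease than every late gene, though not with the level of muscle genes as a covariate (below). The comparison is the series' own contrast of the 2 ages, with both sexes in 1 model that also holds sex. The quasi-likelihood test of edgeR, adjusted by Benjamini-Hochberg over 15540 genes, called 9 of 9 lower at an adjusted p under 0.05. Of all tested genes 5.01% were called lower, 1.61% higher and so 6.62% in either direction, around a median change of 0.01. The 8-week levels alone would have passed the filter on low counts for 8 of the 9, and Ctsg passed only through the 4-week libraries, where it is high. In bulk tissue fewer cells of a type and less RNA per cell cannot be told apart.

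Calls changed when libraries were left out. Without the pair with lung transcripts, male 2 and 3 at 8 weeks, edgeR called 3 of the 9, Mpo, Prtn3 and Ctsg, and 485 genes in all, against 1028 with every library. The estimates without that pair were −1.85 to −1.41 for the early and −1.03 to −0.82 for the late genes, close to those with every library. Leaving out the male pair at 4 weeks, the estimates lay between −1.58 and −0.42 with edgeR adjusted p between 0.0575 and 0.383, so that none of the calls held.

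**Figure D1:**
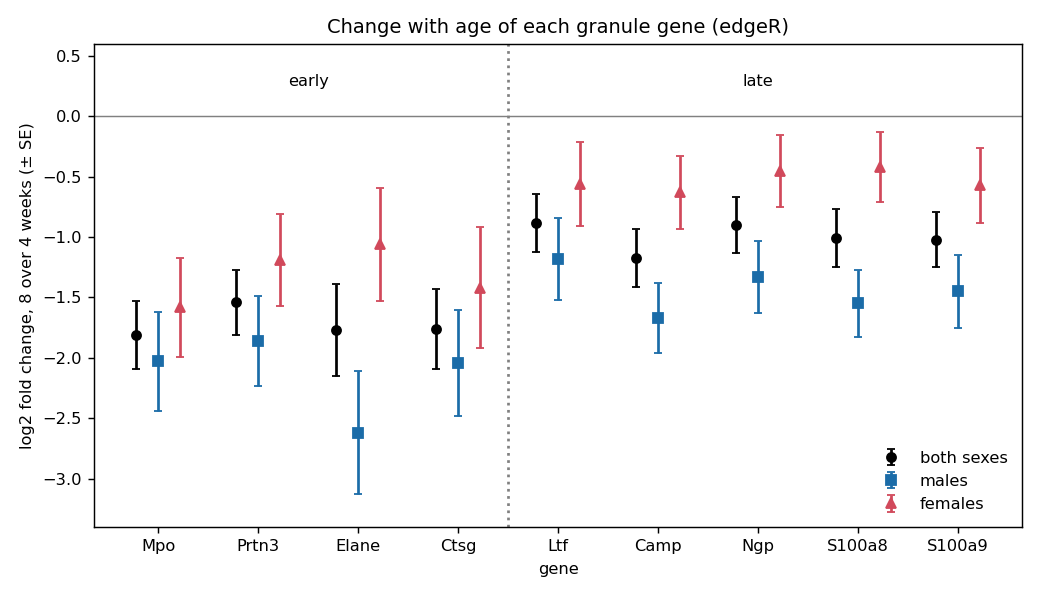
Log2 fold change of each granule gene, 8 over 4 weeks, for both sexes together (circles), males (squares) and females (triangles), with bars of 1 SE from edgeR. Early genes stand left of the dotted line and late genes right of it. Every estimate is below 0, and in each comparison the early genes lie lower than the late genes.

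Among the early genes, Mpo (Entrez Gene 17523, chromosome 11), the peroxidase that makes hypochlorous acid in the azurophil granule, had a lowest, median and highest level of 2.41, 3.2 and 5.32 CPM in the 6 libraries at 8 weeks. At 4 weeks it had 16.2 and 11.5 CPM in male libraries 1 and 2, and 5.91 and 16.3 CPM in female libraries 1 and 2. The ages did not overlap, and female 4-week library 1 was the low one of its age. Mpo averaged 3.57 ± 1.25 CPM (SD, n = 6) at 8 weeks and 12.5 ± 4.91 CPM (SD, n = 4) at 4 weeks. The estimate was −1.81 (SE 0.28, edgeR adjusted p = 0.00116), a level 3.49-fold lower at 8 weeks. An antisense gene, Gm11505, overlaps Mpo in the GENCODE annotation, and Gm34064 overlaps it in the RefSeq table. No label states whether the counts used strand, and reads shared with either gene were not examined.

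Prtn3 (Entrez Gene 19152), proteinase 3, and Elane (Entrez Gene 50701), neutrophil elastase, are neighbouring serine protease genes on chromosome 10. Prtn3 had a lowest, median and highest level of 1.77, 2.09 and 2.68 CPM at 8 weeks. At 4 weeks it had 10.5 and 4.74 CPM in males and 3.19 and 6.71 CPM in females, all above every 8-week library. It fell by 1.54 (SE 0.27, edgeR adjusted p = 0.00285). In GENCODE its span overlaps Plppr3, a neuronal gene on the opposite strand, which lay between 52.3 and 58.5 CPM at 8 weeks and between 49.7 and 57.3 CPM at 4 weeks. The RefSeq table, which shares the Entrez identifiers of the counts, places Plppr3 beside Prtn3 with no overlap. The annotation behind the counts is not stated, and if it holds the overlap, the Prtn3 level is uncertain.

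Elane had a lowest, median and highest level of 0.733, 1.28 and 2.92 CPM at 8 weeks, against 9.37 and 2.85 CPM in male and 3.79 and 5.03 CPM in female libraries at 4 weeks. Only female 8-week library 3, at 2.92 CPM, overlapped the younger libraries, reaching just above male 4-week library 2. Elane fell by 1.77 (SE 0.38, edgeR adjusted p = 0.0116), and without male 8-week libraries 2 and 3 the estimate was −1.55 (edgeR adjusted p = 0.105).

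Ctsg (Entrez Gene 13035, chromosome 14), cathepsin G, was the scarcest member. It had 5, 2 and 6 counts in male and 3, 6 and 3 counts in female libraries at 8 weeks. It had 18 and 19 counts in male and 7 and 14 counts in female libraries at 4 weeks. Scaled to depth the ages did not overlap, with 0.223 to 0.618 CPM at 8 weeks and 0.828 to 2.11 CPM at 4 weeks, and Ctsg fell by 1.76 (SE 0.33, edgeR adjusted p = 0.00467). At such counts the error of a single library is large.

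Among the late genes, Camp (Entrez Gene 12796, chromosome 9), the mouse cathelicidin antimicrobial peptide, was the one whose ages did not overlap. It had a lowest, median and highest level of 9.58, 13.6 and 16 CPM at 8 weeks. At 4 weeks it had 53.8 and 23.3 CPM in males and 18.6 and 25.3 CPM in females. Camp averaged 13.2 ± 2.53 CPM (SD, n = 6) at 8 weeks and 30.2 ± 16 CPM (SD, n = 4) at 4 weeks. Camp fell by 1.17 (SE 0.24, edgeR adjusted p = 0.00843). Male 4-week library 1 stood far above the other 3 of its age.

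Ngp (Entrez Gene 18054), a cathelin-related protein of the specific granule, and Ltf (Entrez Gene 17002), the iron-binding lactoferrin, lie on the same chromosome and had overlapping ages. Ngp had a lowest, median and highest level of 23.6, 35.3 and 45.6 CPM at 8 weeks, against 103 and 50.5 CPM in male and 38.9 and 65.7 CPM in female libraries at 4 weeks. Ltf had 9.94, 15 and 21 CPM in that order at 8 weeks, against 44.3 and 19.3 CPM in male and 18.2 and 26.8 CPM in female libraries at 4 weeks. For Ngp 4 of 6 and for Ltf 5 of 6 libraries at 8 weeks lay below every 4-week library. Ngp fell by 0.90 (SE 0.23, edgeR adjusted p = 0.0310) and Ltf fell by 0.88 (SE 0.24, edgeR adjusted p = 0.0462). These were the least stable calls: without male 4-week library 1 the estimates were −0.57 (edgeR adjusted p = 0.0930) for Ngp and −0.54 (edgeR adjusted p = 0.165) for Ltf. The edgeR adjusted p of Ltf also lay above 0.05 with female library 2 at 4 weeks left out (0.114), and at 8 weeks with male 1 (0.0955), male 2 (0.102), female 1 (0.0933), female 2 (0.0645) or female 3 (0.0705) left out. That of Ngp did so with female 2 at 4 weeks left out (0.0899), and at 8 weeks with male 1 (0.0756), male 2 (0.0746), female 1 (0.0683) or female 2 (0.0509) left out. Over all alternatives the edgeR, DESeq2 and limma adjusted p ranged from 0.00221 to 0.714 for Ngp and from 0.00552 to 0.860 for Ltf.

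S100a8 (Entrez Gene 20201) and S100a9 (Entrez Gene 20202) are adjacent genes on chromosome 3 whose proteins pair to form calprotectin, which binds calcium and zinc. S100a8 had a lowest, median and highest level of 27.1, 40.8 and 45 CPM at 8 weeks, against 139 and 62.2 CPM in male and 43.9 and 68.4 CPM in female libraries at 4 weeks. S100a9 had 40.5, 54 and 73.3 CPM in that order at 8 weeks, against 205 and 90.3 CPM in male and 69.2 and 102 CPM in female libraries at 4 weeks. In each gene 1 of the 8-week libraries, female library 3 for S100a8 and male library 3 for S100a9, reached above female 4-week library 1. S100a8 fell by 1.01 (SE 0.24, edgeR adjusted p = 0.0220) and S100a9 fell by 1.02 (SE 0.23, edgeR adjusted p = 0.0166). The edgeR adjusted p of S100a8 was 0.0557 without female 4-week library 2, 0.0596 without male 8-week library 1 and 0.057 without male 8-week library 2. Over the 9 granule genes, 4 had no overlap between the ages (Mpo, Prtn3, Ctsg and Camp), while 4.49% of all tested genes had every 8-week library below every 4-week library. Ctsg passed the filter on low counts only through the 4-week libraries, so its lack of overlap is no independent support.

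**Figure D2:**
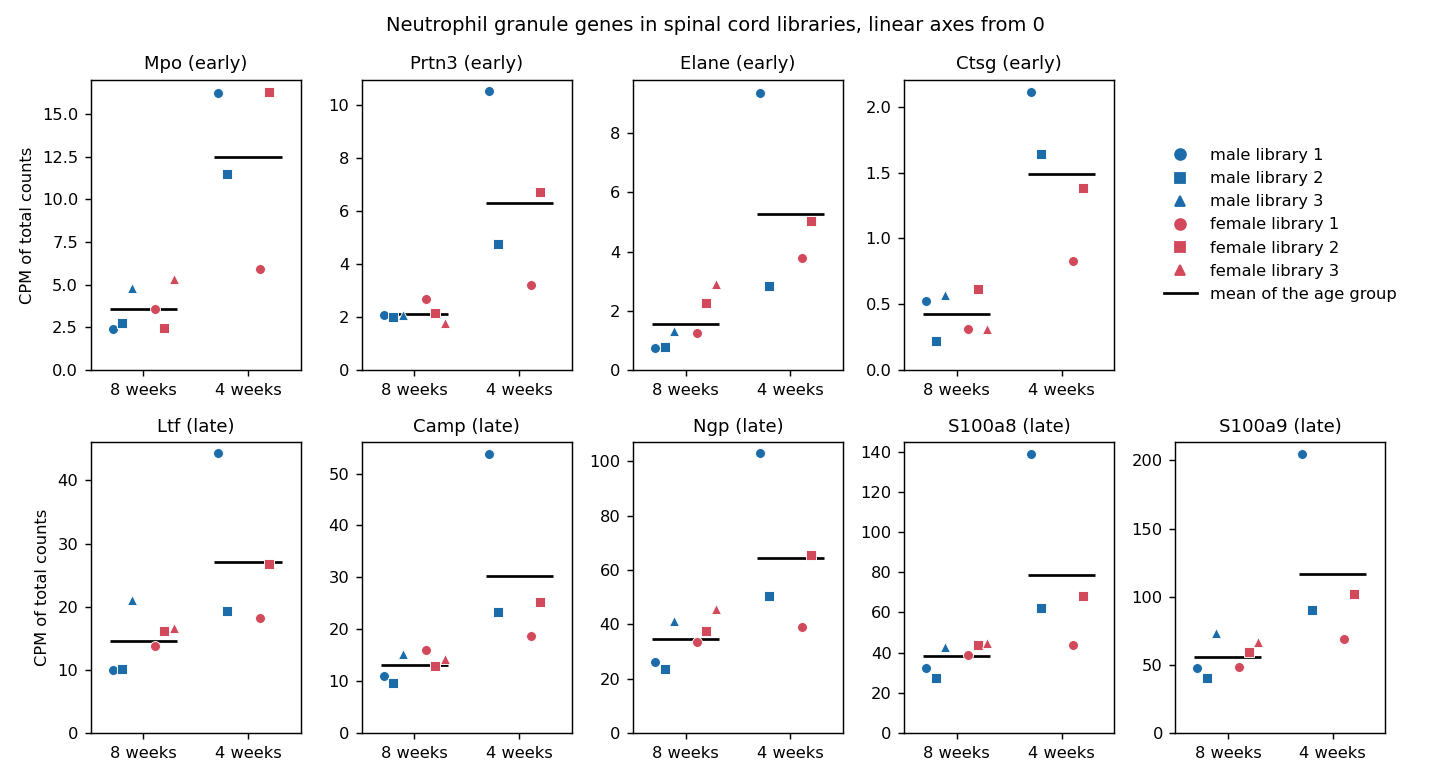
Level of each granule gene in CPM of total counts, with 1 point per library, males in blue and females in red, and a line at the mean of each age, 8 weeks left of 4 weeks. Male 4-week library 1 is the highest point in all panels but that of Mpo, where female 4-week library 2 reaches 16.3 CPM.

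The balance of early to late transcripts was compared by the share of the 9 genes' counts that fell on the 4 early genes, which does not depend on a library's depth. This share was lower at 8 weeks in every library. It had a lowest, median and highest value of 4.24%, 4.65% and 5.20% at 8 weeks, against 6.54% and 7.77% in male and 6.78% and 9.27% in female libraries at 4 weeks. The highest 8-week library, female 3, had a 95% Wilson interval of 4.29% to 6.29%, and the lowest 4-week library, male 1, had one of 5.89% to 7.26%. These 2 intervals, which cover counting error only, overlap, while the values of the ages do not. Because longer transcripts give more counts, the share compares libraries and does not say how many early transcripts there were per late transcript.

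As a log2 ratio of late to early counts, the balance averaged 4.36 ± 0.13 (SD, n = 6) at 8 weeks and 3.62 ± 0.25 (SD, n = 4) at 4 weeks, a difference of 0.74. Libraries far apart in level could be close in this ratio. Male 4-week library 1 held 546 CPM summed over the late genes and female 4-week library 1 held 189 CPM, and their log2 ratios were 3.84 and 3.78. The difference of 0.74 was 0.82 without both male 4-week libraries, 0.73 without male 8-week libraries 2 and 3, and 0.76 without S100a8 and S100a9. No p is given, since the genes were chosen with results of these data known.

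**Figure D3:**
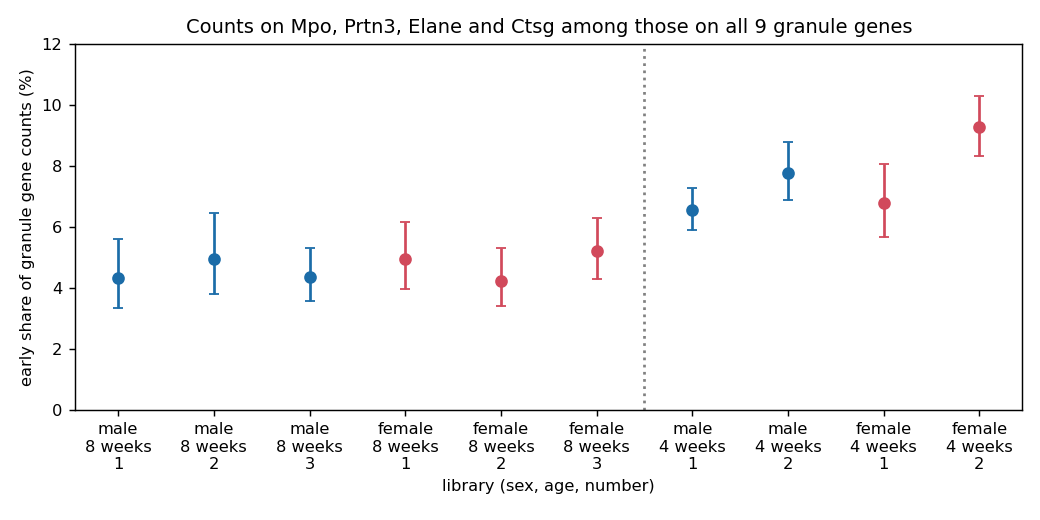
Share of the counts on all 9 granule genes that fell on Mpo, Prtn3, Elane and Ctsg, in percent, for each library, with 95% Wilson intervals for counting error, males in blue and females in red. The 8-week libraries, left of the dotted line, lie between 4.24% and 5.20%, and the 4-week libraries lie between 6.54% and 9.27%.

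Within each sex the same order of early and late genes was seen, with larger estimates in males. In males the early genes had a median change of −2.03 and the late genes one of −1.45, and edgeR called 8 of 9 lower, all but Ltf, where 2.39% of all tested genes were called lower. Elane had the largest estimate, −2.62 (SE 0.51, edgeR adjusted p = 0.0168), with 0.946 ± 0.329 CPM (SD, n = 3) in 8-week males and 6.11 ± 4.62 CPM (SD, n = 2) in 4-week males. In females the early genes had a median change of −1.31 and the late genes one of −0.56, and edgeR called 0 of 9, where 1.22% of all tested genes were called lower. Of the 9, 4 had an unadjusted p under 0.05 in females, DESeq2 called 1, Mpo, and limma-voom called 0. The female estimates ran from −1.58 (SE 0.41, edgeR adjusted p = 0.0971) for Mpo to −0.42 (SE 0.29, edgeR adjusted p = 0.604) for S100a8.

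The male count was fragile: it was 1, Camp, without male 4-week library 1 or without male 8-week library 1, and 0 without male 8-week library 2. The difference between the sexes in the age change was not called for any of the 9 by edgeR, DESeq2 or limma-voom, where edgeR called 0.0129% of all tested genes, and 3 of the 9 had an unadjusted p under 0.05. Its largest estimates, female minus male, were 1.56 (SE 0.71, edgeR adjusted p = 0.970) for Elane and 1.13 (SE 0.40, edgeR adjusted p = 0.970) for S100a8. Sex itself, over both ages, gave changes of −0.46 to 0.28, female over male, with 0 of 9 called by edgeR, DESeq2 or limma-voom and 0 with an unadjusted p under 0.05, where edgeR called 0.0901% of all tested genes.

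Divided by the length of their joined exons, the granule genes kept a clear order of level. At 8 weeks the mean was 107 ± 24.2 RPKM for S100a9, 55.2 ± 10.3 for S100a8, 28.3 ± 7 for Ngp, 17.4 ± 3.34 for Camp and 4.24 ± 1.23 for Ltf (SD, n = 6), where RPKM is CPM per kilobase. Below them came Elane at 1.57 ± 0.886 RPKM, Prtn3 at 1.23 ± 0.173, Mpo at 1.04 ± 0.365 and Ctsg at 0.412 ± 0.159. Each late gene lay above the next one in 6 of 6 libraries, and Elane, Prtn3 and Mpo differed from each other by less than their spread. At 4 weeks the late genes had the same order in 4 of 4 libraries, from 223 ± 116 RPKM for S100a9 to 7.87 ± 3.49 RPKM for Ltf (SD, n = 4). Elane at 5.35 ± 2.93 RPKM was again the highest early gene on average, and Mpo and Prtn3 had the same mean, 3.64 RPKM.

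The sequence upstream of the genes is shown because the members are grouped by stage, and because C/EBP and PU.1 are the transcription factors best known for switching granule genes on. In the 250 bases before the start site (RefSeq, GRCm38.p6, a different build from the mm9 of the counts), the letters GAGGAA, a core of PU.1 sites, were found on either strand in 4 of 4 early and 2 of 5 late genes, and in 23.3% of 32851 windows of that length in the table. The letters TTNNGNAA, a loose C/EBP core, were found in 0 of 4 early and 4 of 5 late genes, all but Camp, and in 36.8% of all windows. The 2 patterns do not overlap in these windows. Shown are the windows of the neighbouring early genes Prtn3 (chr10:79879417-79879666) and Elane (chr10:79886062-79886311) and of the late genes Ltf (chr9:111019042-111019291) and Ngp (chr9:110419558-110419807), all on the plus strand. Capitals mark matches to either pattern on either strand.
Prtn3: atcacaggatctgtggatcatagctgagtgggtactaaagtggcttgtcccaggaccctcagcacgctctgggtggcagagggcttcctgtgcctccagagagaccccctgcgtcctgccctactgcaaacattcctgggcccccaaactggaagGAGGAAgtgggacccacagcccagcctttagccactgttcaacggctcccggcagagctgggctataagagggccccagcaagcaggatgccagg
Elane: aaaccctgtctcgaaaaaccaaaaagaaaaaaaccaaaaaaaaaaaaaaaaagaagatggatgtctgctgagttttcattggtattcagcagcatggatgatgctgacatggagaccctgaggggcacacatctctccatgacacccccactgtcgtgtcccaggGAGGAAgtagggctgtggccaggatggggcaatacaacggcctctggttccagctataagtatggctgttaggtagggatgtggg
Ltf: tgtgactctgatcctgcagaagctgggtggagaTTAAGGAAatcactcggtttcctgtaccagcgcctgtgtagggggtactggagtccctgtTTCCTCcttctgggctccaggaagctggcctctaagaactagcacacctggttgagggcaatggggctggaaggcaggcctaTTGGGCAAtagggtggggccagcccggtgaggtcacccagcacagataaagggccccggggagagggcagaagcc
Ngp: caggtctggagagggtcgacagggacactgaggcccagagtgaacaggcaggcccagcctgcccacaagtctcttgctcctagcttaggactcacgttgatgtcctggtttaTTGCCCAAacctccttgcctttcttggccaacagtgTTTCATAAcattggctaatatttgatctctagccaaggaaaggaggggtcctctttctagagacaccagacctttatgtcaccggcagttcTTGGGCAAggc

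The capitals in Prtn3 run from 95 to 90 bases before the start site and in Elane from 85 to 80. Ltf and Ngp both hold TTGGGCAA, from 75 to 68 bases before the start in Ltf and from 11 to 4 bases before it in Ngp. Other patterns were searched on both strands. A MYB core, AACTG, was found in 3 of 4 early and 2 of 5 late genes and in 39.1% of all windows. A RUNX core, TGTGGT, was found in 1 of 4 early and 1 of 5 late genes and in 14% of all windows. A GATA core, AGATAA, was found in 0 of 4 early and 2 of 5 late genes and in 9.99% of all windows. A match is a string of letters, not a measured binding site.

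Other genes of the neutrophil programme were grouped by granule. Of 11 other azurophil granule and promyelocyte genes 7 were tested, 1 fell and 1 rose, with a median of −0.42. Of all tested genes 5.01% were called lower and 1.61% higher. Of the 7 genes, 2 did not pass the filter on low counts on the 8-week libraries alone, and neither was called. Myb, a transcription factor of blood progenitors, fell by 1.05 (SE 0.25, edgeR adjusted p = 0.0230), with 1.47 to 3.79 CPM at 8 weeks and 3.97 to 8.29 CPM at 4 weeks. Serpinb1a, an inhibitor of the granule proteases, rose by 0.32 (SE 0.08, edgeR adjusted p = 0.0353), and Ctsc, the protease that activates them, stood at −0.03 (SE 0.13, edgeR adjusted p = 0.939).

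For the next 2 lists, too, the share of all tested genes called lower was 5.01%. Of 15 other specific granule genes 12 were tested and 5 fell, with a median of −0.65. Those were Chil3, a chitinase-like protein, by 0.92 (SE 0.22), Pglyrp1, a peptidoglycan-binding protein, by 1.00 (SE 0.25), Hp, haptoglobin, by 1.25 (SE 0.33), Lcn2, a siderophore-binding lipocalin, by 0.82 (SE 0.22), and Cyba, a subunit of the phagocyte oxidase, by 0.63 (SE 0.17). Of 15 gelatinase granule and mature neutrophil genes 11 were tested and 3 fell, with a median of −0.70. Those were the metalloproteases Mmp9, by 0.82 (SE 0.17), and Mmp8, by 0.97 (SE 0.26), and the resistin-like Retnlg, by 1.01 (SE 0.22). Of the 11 genes, 2 (Cxcr2 and Fpr2) passed the filter on low counts only through the 4-week libraries, and neither was called. Fpr2 stood at −0.70, so the median of this list is no independent support. Csf3r, the receptor for granulocyte colony-stimulating factor, which microglia also express, stood at 0.11 (SE 0.13, edgeR adjusted p = 0.684).

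Of 12 genes of signals that recruit or hold neutrophils 3 had counts enough to be tested. Cxcl12, the chemokine that holds neutrophils in marrow, fell by 0.43 (SE 0.10, edgeR adjusted p = 0.0216), and Vcam1 (0.02, SE 0.10) and Icam1 (0.44, SE 0.37), adhesion molecules of vessel walls, were not called. Icam1 was at 11.1 CPM in male 8-week library 2, which held lung transcripts, at 2.37 to 3.3 CPM in the other 8-week libraries and at 2.37 to 3.28 CPM at 4 weeks. The neutrophil chemokine Cxcl2 was at 0 counts in all 10 libraries, while the untested chemokines Cxcl5 and Cxcl1 lay at 0.234 to 0.928 CPM and 0 to 0.209 CPM. Among 11 other S100 genes 8 were tested and 1, S100a6, fell by 0.50 (SE 0.12, edgeR adjusted p = 0.0244), where 5.01% of all tested genes were called lower. S100b, the astrocyte and oligodendrocyte member, stood at −0.01 (SE 0.08).

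Marker genes of some other tissues were also lower at 8 weeks. Of 12 bone and cartilage genes 10 were lower at 8 weeks (median −2.33), of which 5 passed the filter on low counts only through the 4-week libraries, with a summed 52.8 to 80.0 CPM at 8 weeks and 103 to 212 CPM at 4 weeks. Of 12 skeletal muscle genes 11 were lower (median −3.12), with 220 to 353 CPM at 8 weeks and 652 to 2113 CPM at 4 weeks. Beside both lists, 5.01% of all tested genes were called lower. Acp5 and Ctsk, enzymes of bone-resorbing osteoclasts, fell by 3.62 (SE 0.33) and 1.59 (SE 0.16). The 8 microglial genes, of the cord's resident immune cells, had a median of −0.00, and their summed level was 365 to 432 CPM at 8 weeks and 378 to 401 CPM at 4 weeks. The muscle genes' mean level, in centred log2 CPM, was 1.073 to 2.924 at 4 weeks and −2.154 to −0.549 at 8 weeks. The ages do not overlap in it, so a fit with this level as a covariate cannot tell age and muscle level apart. In that fit the estimates of the 9 granule genes ran from −2.16 to −0.12. Their edgeR adjusted p ran from 0.135 to 0.934, so that none of the calls held. The order of early and late genes did not hold either. Prtn3 stood at −0.25 and Elane at −0.28, against −0.45 for Ngp and −0.37 for S100a9. Mpo at −2.16 and Ctsg at −1.22 still lay below every late gene. The SE of the 9 genes ran from 0.53 to 0.85. Each gene's SE with the covariate was divided by its SE without it, and the median ratio over all genes was 2.4. The part of bone, marrow or muscle tissue in the granule gene result was not tested.

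**Figure D4:**
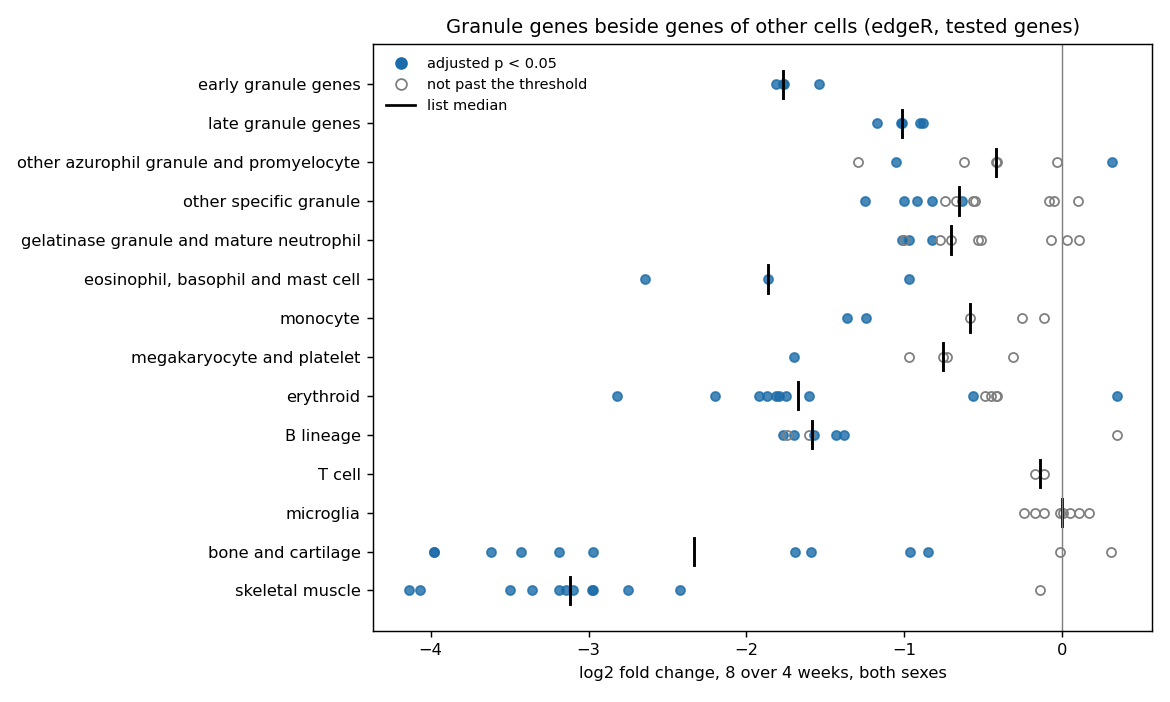
Log2 fold change, 8 over 4 weeks, of the tested genes of each list, filled where the edgeR adjusted p was under 0.05, with a line at the list median. The early granule genes centre on −1.77 and the late ones on −1.01, and the microglial genes lie around 0.

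The genes whose levels were most like those of the granule genes over the 10 libraries were ranked by Pearson correlation of log2 CPM with the mean of each stage. These values describe the libraries, and the ages are separate, so age carries much of each. Among the 8 nearest to the early genes were Ccna2, Nfe2, Tceal7, Prg2, Top2a, Tpx2 and Spast, with r between 0.960 and 0.974 over the 10 libraries. Nfe2 is a transcription factor of red cell and platelet precursors, Prg2 an eosinophil granule protein, and Ccna2, Top2a and Tpx2 are genes of dividing cells. Tceal7 and Spast were not assigned to a cell type.

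The nearest to the late genes was Tceal7 (r = 0.968), which had 0.223 to 0.522 CPM at 8 weeks and 0.828 to 5.39 CPM at 4 weeks. It was followed by Nfe2, Rac2, Cmya5, Lcn2, Ly6d, Tspan32 and Retnlg, with r between 0.943 and 0.958. Of the 8 genes nearest to each stage 2 were shared, Tceal7 and Nfe2. Lcn2 and Retnlg are themselves late neutrophil genes, Rac2 is a GTPase of blood cells, and Ly6d marks B cell precursors. Tceal7, Cmya5 and Tspan32 were not assigned to a cell type, so the list is not one of blood cell genes alone. Among the granule genes, r over the 10 libraries was 0.94 to 0.98 between late genes, 0.79 to 0.90 between early genes and 0.81 to 0.94 between an early and a late gene. Elane had r of 0.79 to 0.84 with the other early genes and 0.89 to 0.93 with the late genes. Counting error is larger for the early genes, which have fewer counts.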

How the data were processed

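The deposited values, which the authors left unnormalized, are raw read counts per Entrez Gene identifier, 1 file per library, made with TopHat2 2.1.0 and featureCounts on mouse build mm9, per the submitters' processing notes. Nothing here states the counting options, the strand setting or the gene annotation. Symbols came from a RefSeq table (GRCm38.p6), which matched 24191 of 26301 identifiers, among them all 9 granule genes. Lengths for RPKM are joined exons of GENCODE M21 (GRCm38). The tests used edgeR 4.0.16 and R 4.3.3 (TMM scaling, filterByExpr on the 4 groups with minimum count 10 and minimum total 15, quasi-likelihood F test, two-sided). Age and sex came from an additive model, age within a sex and the interaction from a model of the 4 groups. A gene's SE is its log2 fold change over the square root of F. Printed levels are CPM of total counts. On simulated data with the real means, 84% of genes changed 1 log2 unit with age and 96% of those changed 2 units were recovered over 15540 genes, with 9 false calls. Changed genes were drawn at random from all tested genes and varied independently. The granule genes vary together, so these rates do not describe them. Alternatives used DESeq2 1.42.0 and limma 3.58.1. The members and the 19 other gene lists were chosen with earlier results of these data known. Named beside the members were the 2 genes of lowest p in a list and further members chosen after their values were seen, and the 8 genes most correlated with each stage. Of the 203 genes in all lists, 2 erythroid ones had no match. Some genes the naming rule selects are not reported here. A comparison of the members' protein sequences was planned and not run.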

Additional observations from a re-analysis of the deposited data

How the results depend on the processing

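Direction held for all 9 granule genes under all 19 alternatives, and of 171 estimates 127 kept their side of the threshold and 44 lost the call. Leaving out 1 library at a time left 6 to 9 granule genes called for age over both sexes, 0 to 9 in males and 0 to 1 in females, and 719 to 1472 genes in all (1028 with every library). Where a library of a pair was left out, the lone one was assumed to vary like the other groups. Without male 8-week libraries 2 and 3 the counts were 485 genes, 3 granule genes over both sexes and 0 in males. Without both male 4-week libraries they were 400 and 0. With the muscle score as a covariate, which does not overlap between the ages, they were 88, 0 and 0. In females the count was 1, Mpo, without the filter on low counts, with DESeq2, with the replicate block and without female 4-week library 1. The cause was not tested. The replicate numbers showed no clear pairing of the libraries. Of 13 same-numbered pairs 5 had correlated deviations over 0.1 (−0.213 to 0.236), and 5 of 10 libraries correlated best with their own number. In groups of 2 libraries the deviations from the group mean mirror each other. The pairs are therefore not separate, and this check cannot exclude a pairing. With the replicate block 808 genes, 9 granule genes over both sexes, 8 in males and 0 for the interaction and for sex were called. The late to early ratio differed between the ages by 0.60 to 0.82 under all 15 alternatives. These left out libraries or genes or took a mean of log2 CPM, and the muscle score was not applied to the ratio. Depth limits Ctsg and Elane most, with 25 and 90 counts over the 6 libraries at 8 weeks.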

Other observations

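Other cells that mature in marrow were read in the same way. Of 14 erythroid genes tested 9 fell, 1 rose and 4 did not pass (edgeR, age over both sexes, median −1.67), where 5.01% of all tested genes were lower. Of those 9, 3 (Car1, Gata1 and Klf1) passed the filter on low counts only through the 4-week libraries, where they are high, so that their calls and the list's median are no independent support. Slc4a1, a membrane protein gene of maturing red cells, stood at −1.79 (SE 0.25), the transcription factors Klf1 and Gata1 at −1.81 (SE 0.29) and −1.87 (SE 0.41), and Car1, a red cell carbonic anhydrase, at −2.82 (SE 0.28). The globin genes, whose RNA also circulates in young red cells, had smaller estimates: Hba-a1 fell by 0.56 (SE 0.12), and Hba-a2 stood at −0.42 (SE 0.15, edgeR adjusted p = 0.116). Globin genes have near-identical copies, so their counts are uncertain. Car2, also an oligodendrocyte gene, rose by 0.35 (SE 0.07).

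Of 8 tested B lineage genes 5 fell (median −1.58), where, as for the lists that follow, 5.01% of all tested genes were called lower. Of the 8, 3 did not pass the filter on low counts on the 8-week libraries alone. Among those that fell were Rag1, the recombinase of developing lymphocytes, by 1.70 (SE 0.28), and Vpreb3, a gene of B cell precursors, by 1.38 (SE 0.27). Cd79b and Cd79a, the signalling chains of the B cell receptor, stood at −1.77 (SE 0.27, edgeR adjusted p = 0.00123) and −1.57 (SE 0.26), and Cd79a passed the filter only through the 4-week libraries. Vpreb1, which was not tested, had 0 to 0.206 CPM at 8 weeks and 0.473 to 1.17 CPM at 4 weeks. The 3 tested eosinophil genes, Prg2, Epx and Prg3, fell, Prg3 having passed the filter only through the 4-week libraries, with the eosinophil granule protein gene Prg2 at 1.88 to 4.12 CPM at 8 weeks and 4.02 to 15.5 CPM at 4 weeks. Of 5 platelet genes Ppbp, a platelet chemokine, fell by 1.70 (SE 0.39, edgeR adjusted p = 0.0166). Of 5 monocyte genes Plac8 and Ly6c2 fell, by 1.36 (SE 0.25) and 1.24 (SE 0.29), and the T cell genes Lck and Trac stood at −0.17 (SE 0.31, edgeR adjusted p = 0.812) and −0.11 (SE 0.22, edgeR adjusted p = 0.818). Of 9 cell division genes 8 fell (median −1.23), with Mki67, a marker of cycling cells, at 5.23 to 13.9 CPM at 8 weeks and 17.6 to 44.9 CPM at 4 weeks. Of 7 tested fat cell genes 7 fell and of 8 adrenal genes 7, of which 3 fat and 5 adrenal genes passed the filter only through the 4-week libraries. The adrenal genes were at summed levels of 138 and 100 CPM in the male and 14.3 and 13.4 CPM in the female 4-week libraries.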
